A study of Homo sapiens with 4 samples.

Results

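The last exon of a spliced human transcript is the exon at its 3′ end, and it usually holds the end of the coding region, the stop codon and the 3′ untranslated region (3′ UTR). Last exons were taken from every gene with a TPM (the authors' length-corrected share of a library's signal) of at least 10 in all 4 libraries whose top transcript, the one with the highest mean TPM over the libraries, has at least 4 exons. This gave 2836 last exons, 1 per gene, out of 1460406 exons listed for 60651 genes. Of the 3751 genes past the TPM minimum, 915 had a top transcript with fewer exons. The members were chosen on level and exon number, and the rule also names the comparison that is described: the mean per-base footprint coverage of the last exon against the length-weighted mean coverage of the internal exons of the same transcript. Because this ratio is part of the rule, its size is a description with no test. The gene closest inside the TPM minimum had a lowest TPM of 10.002 and the gene closest outside had 9.993.

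Ribosome-protected fragments came from cultures of 4 leukemia cell lines: HL60, of an acute promyelocytic-like leukemia, K562, of a chronic myeloid leukemia, and the acute monocytic lines MOLM13 and THP-1. Each line gave a single library, the labels name no treatment, and the lysis buffer of all of them held cycloheximide. The study concerns long non-coding RNAs that may also be translated. There is thus no replicate, no p-value is given, and a difference between lines is a difference between these libraries.

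Values are given throughout in the order of K562, then THP-1, then the library labelled as MOLM13, then HL60. The libraries held 473, 678, 344 and 973 megabases of aligned sequence in this order. The embryonic globin gene HBE1 stood at a TPM of 8853 in K562, and the granule gene AZU1 at 2095 in THP-1 and 352 in HL60. Of the monocytic markers, THP-1 held CSF1R at 23.5, CD68 at 172, LYZ at 2810 and IRF8 at 566, but CD14 at 1.57 and FLT3 at 1.85. In the library labelled MOLM13, CSF1R, CD68 and FLT3 were at 0, LYZ was at 11.7, CD14 at 1.60 and IRF8 at 0.933. CD14 and FLT3 thus hardly set this library apart from THP-1. The library held the erythroid genes HBE1 and GATA1 at 12.5 and 6.89, which were at 0 in THP-1 and HL60. Its deposited file carries another name than the label, so this label could not be checked. Of the B cell markers, MS4A1 was at 0 in all 4 libraries.

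During translation the ribosome shields a short stretch of messenger RNA from nuclease, and these footprints are sequenced. An elongating ribosome is released at the stop codon, after which the subunits are recycled, so a translated message carries footprints over its coding region and few over the 3′ UTR. In most human messages the stop codon lies in the last exon. Where it lies well upstream of the last junction, the exon junction complex left downstream can mark the message for nonsense-mediated decay. Readthrough of a stop codon, in which an amino acid is inserted in place of release, depends on the stop codon and the bases after it.

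In most members the last exon holds the stop codon, the boundary between coding bases and 3′ UTR. The windows that follow give the last 12 coding bases, the stop codon in capitals and the first 15 bases of the 3′ UTR, 5′ to 3′ on the transcript strand. They come from GENCODE release 29 transcripts on hg38. The first set is shown because these last exons held much signal (HSP90AB1, LGALS1, TUBB4B), little signal over a long 3′ UTR (NUCKS1, SRSF1, SOD2), or more signal than the internal exons (RPS15, TOR3A).

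HSP90AB1 (chr6:44253584-44253613, plus strand): gaagaagtcgatTAGgttaggagttcatag
LGALS1 (chr22:37679735-37679764, plus strand): gtggcctttgacTGAaatcagccagcccat
TUBB4B (chr9:137243542-137243571, plus strand): gaggaggtggccTAGagccttcagtcactg
NUCKS1 (chr1:205718265-205718294, minus strand): tctggggaggatTAAaagtgatgatggtct
SRSF1 (chr17:58005391-58005420, minus strand): cgctctcgtacaTAAgatgattggtgacac
SOD2 (chr6:159682478-159682507, minus strand): gcttgcaaaaagTAAaccacgatcgttatg
RPS15 (chr19:1440448-1440477, plus strand): atccctctcaagTAAtggctcagctaataa
TOR3A (chr1:179095204-179095233, plus strand): tacttcctgtcaTGAaggctagaggaagac

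The second set is shown because LDHB and MDH1 are described to extend into a peroxisomal form by readthrough, and both carry the stop codon TGA followed by the bases CTA. The next in-frame stop codon lies 6 codons further in LDHB and 18 codons further in MDH1.

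LDHB (chr12:21635527-21635556, minus strand): ctaaaagacctgTGActagtgagctctagg
MDH1 (chr2:63606973-63607002, plus strand): ctttcctctgccTGActagacaatgatgtt

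Last exons carried far less per-base coverage than the internal exons of the same transcripts in all 4 libraries. The median ratio of last-exon to internal coverage was 0.112, 0.123, 0.112 and 0.126. The quartiles were 0.0380 and 0.281 in K562 and 0.0507 and 0.290 in HL60, so exons of 1 library differed far more than the medians of the libraries. The ratio could be formed for 2363, 2636, 2482 and 2631 of the 2836 last exons, and for the others the top transcript had no internal coverage in that library. Last exons made up 43.2% of the length of the member transcripts and held 9.56, 9.07, 9.56 and 9.98% of their aligned bases.

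In K562, 2064 of 2363 last exons (87.3%) were at least 2-fold below their internal exons, with a 95% Wilson interval of 85.9 to 88.6% that covers counting error only. The other 3 libraries had 88.7, 87.6 and 88.3%. The background is the same measure on 1 internal exon against the other internal exons of its transcript, which was at least 2-fold below in 24.8, 16.8, 23.0 and 14.0% of cases. The shares that were lower by any amount were 95.6, 96.7, 95.9 and 96.8%. Of the 1977 last exons measured in all 4 libraries, 1596 (80.7%) were at least 2-fold below in each of them.

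Medians also declined, by less, over the positions before the last exon, taken against the other internal exons. From 5 exons before the last to 1 before it, the median ratio went from 0.919 to 0.784 in K562 and from 0.940 to 0.794 in THP-1. It went from 0.923 to 0.795 in the library labelled MOLM13 and from 0.945 to 0.821 in HL60. Fewer transcripts have the earlier position (1739, 1905, 1820 and 1905 exons) than the later (2362, 2636, 2480 and 2629), so the sets of transcripts differ. The median of an internal exon against the others was 0.905, 0.912, 0.909 and 0.927. First exons, which hold the 5′ UTR and the start codon, were lower than internal exons at the median in K562 (0.717) and the library labelled MOLM13 (0.680), near them in HL60 (0.950) and higher in THP-1 (1.27). They were at least 2-fold below in 37.8, 19, 39.2 and 24.9% of transcripts and at least 2-fold above in 16.1, 28.3, 13.3 and 16.1%. First exons thus differed between libraries in direction, and last exons did not.

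**Figure D1:**
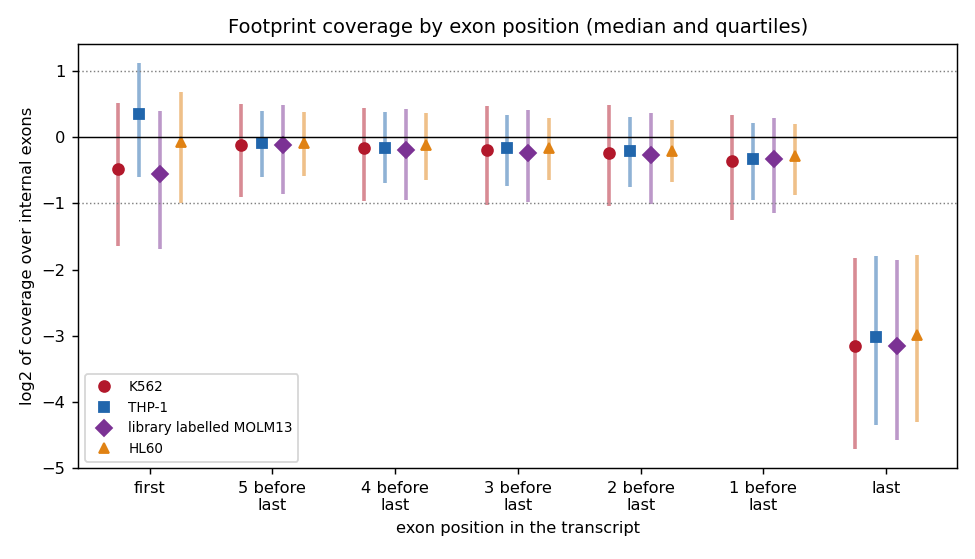
Coverage of an exon relative to the internal exons of its transcript (y axis, log2) by exon position (x axis), as median (symbol) and quartiles (line) over transcripts, with 1 colour per library. Dotted lines mark 2-fold. The last exon sits at a median log2 of -3.16 to -2.99, while the exon before it sits between -0.35 and -0.28.

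The last exons ranged from 6 bases (RPL17) to 13570 bases (SOD2), with a median of 800 bases and quartiles of 375 and 1644, whereas internal exons had a median of 119. The ratio fell with length in every library. Under 250 bases (426 exons) the median ratio was 0.392, 0.369, 0.396 and 0.387. From 250 to under 500 bases (536 exons) it was 0.238, 0.252, 0.248 and 0.267. From 500 to under 1000 bases (697 exons) it was 0.149, 0.150, 0.144 and 0.152.

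The fall went on in the longer exons. From 1000 to under 2000 bases (644 exons) the median ratio was 0.0789, 0.0858, 0.0783 and 0.0761, and from 2000 to under 4000 bases (399 exons) it was 0.0460, 0.0520, 0.0528 and 0.0461. At 4000 bases and over (134 exons) it was 0.0238, 0.0258, 0.0225 and 0.0266. The share at least 2-fold below the internal exons went from 59.2, 61.2, 60.7 and 61.3% in the shortest class to 99.2% in each library in the longest. The medians of neighbouring length classes stood further apart than those of the 4 libraries within a class.

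**Figure D2:**
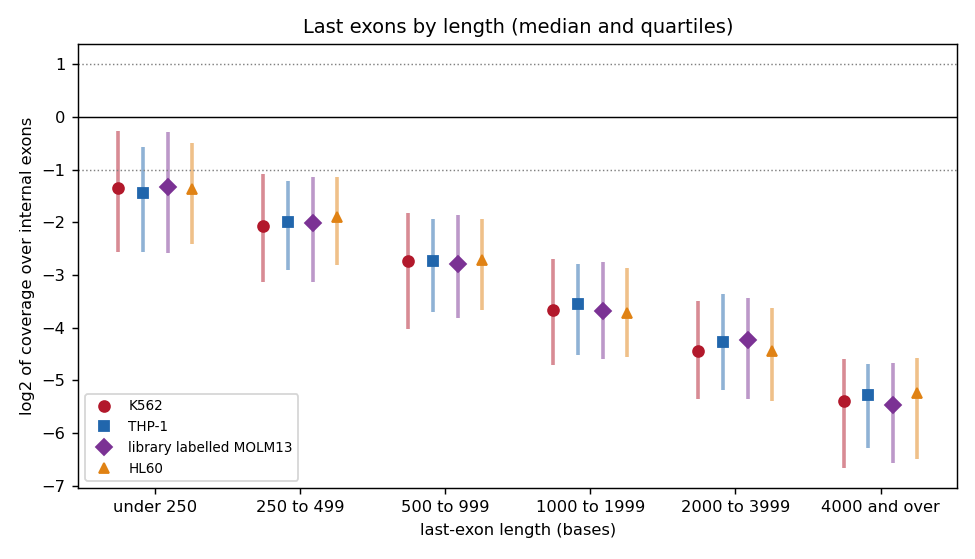
Last-exon coverage over internal coverage (y axis, log2) by last-exon length in bases (x axis), as median and quartiles over exons, with 1 colour per library. The medians fall in each step, from ratios of 0.369 to 0.396 under 250 bases to 0.0225 to 0.0266 at 4000 bases and over.

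Coding regions were not part of the rule. They came from GENCODE release 29 for 2462 members whose transcript has the same introns and a complete coding region, and the last exon holds coding bases in 2278 of them. At the median, 12% of a last exon was coding. The coding share fell with length, from a median of 44.5% under 250 bases to 2.37% at 4000 bases and over.

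Sorted by this share, last exons with under 10% coding bases (892) had a median ratio of 0.0433, 0.0474, 0.0453 and 0.0460. With 10 to 25% coding bases (682) the median was 0.136, 0.136, 0.133 and 0.138, and with 25 to 50% (448) it was 0.302, 0.300, 0.300 and 0.296. With 50 to 75% (195) it was 0.446, 0.443, 0.455 and 0.439, and with 75% and over (61) it was 0.754, 0.691, 0.610 and 0.652. In the last class, 26.2, 38.9, 37.5 and 33.9% of exons were still at least 2-fold below.

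**Figure D3:**
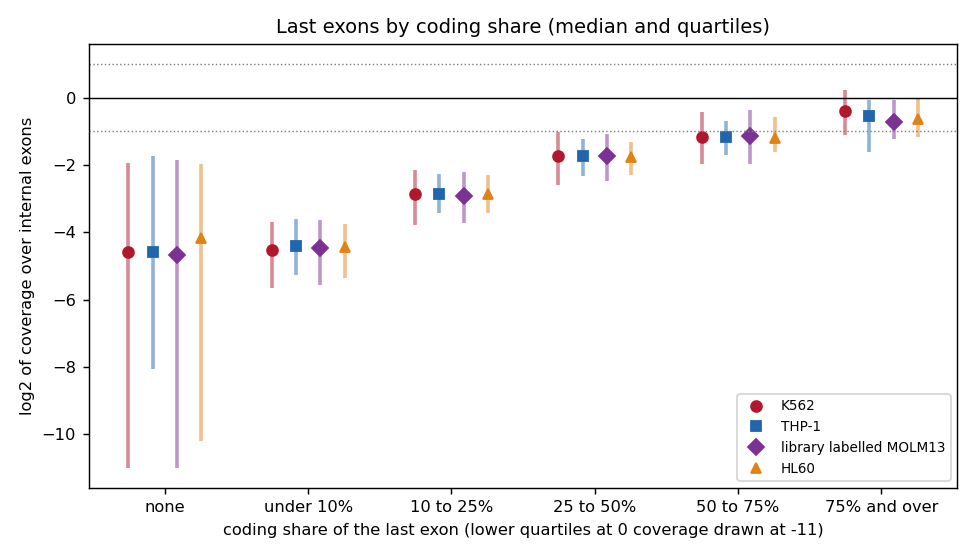
Last-exon coverage over internal coverage (y axis, log2) by the share of the last exon that is coding (x axis), as median and quartiles over exons with a complete coding region. From under 10% to 75% and over, the medians rise in each library, from ratios of 0.0433 to 0.0474 up to 0.610 to 0.754, and the class with no coding base has the widest quartiles.

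Divided by the coding share, the ratio had a median of 0.889, 0.922, 0.894 and 0.870. It would be 1 if the coding bases of the last exon were covered like the internal exons and the 3′ UTR not at all. The figures that follow cover last exons with coding bases, any coverage and at least 600 aligned bases on internal exons. Last exons listed without coverage were thus left out, though the medians above include them. The Spearman rank correlation between the ratio and the coding share was 0.753, 0.807, 0.769 and 0.830 (1854, 2110, 1961 and 2116 exons). The Spearman rank correlation between the ratio and the length was -0.609, -0.625, -0.625 and -0.648, and after division by the coding share it was -0.0140, 0.0889, 0.0321 and 0.0475. Exons of a library share its depth, and the coding share contains the length, so these are descriptions. Within 2-fold of the coding share lay 64.7, 74.1, 66.5 and 78.3% of these covered exons.

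Within a coding class, both length and coding share still vary. Among exons with under 10% coding bases, K562 had a median ratio of 0.111 from 250 to under 500 bases (31 exons measured), 0.0503 from 500 to under 1000 (110), 0.0530 from 1000 to under 2000 (273), 0.0386 from 2000 to under 4000 (278) and 0.0238 at 4000 bases and over (113). The median coding share in these classes was 7.09, 6.57, 6.17, 4.36 and 2.42%. Divided by the coding share, the ratio had medians of 2.19, 0.943, 0.978, 0.969 and 0.925, so it was flat from 500 bases up. Among exons with 25 to 50% coding bases, the medians of HL60 were 0.321 under 250 bases (78), 0.307 from 250 to under 500 (177), 0.273 from 500 to under 1000 (121), 0.262 from 1000 to under 2000 (29) and 0.321 from 2000 to under 4000 (13).

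Of the 3 stop codons, TAG had the highest median ratio over the coding share in each library. TAA ended 777 of the complete coding regions (31.6%), TAG 517 (21.0%) and TGA, the stop codon known for the most readthrough, 1168 (47.4%). The median ratio over the coding share was 0.854, 0.918, 0.894 and 0.854 for TAA. It was 0.992, 0.979, 0.954 and 0.922 for TAG, and 0.881, 0.911, 0.875 and 0.856 for TGA. Of the 2149 members with a stop window, 8 (0.372%) hold TGACTA, the stop codon and its next 3 bases, searched on the transcript strand only. Their median ratio over the coding share was 0.866 (8 exons), 0.922 (8), 1.18 (7) and 0.775 (8), against 0.866, 0.906, 0.871 and 0.844 for the other TGA stop codons. Footprints beyond the stop codon were not measured apart from those before it, since the files give 1 value per exon.

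LDHB, a subunit of lactate dehydrogenase, has 168 coding bases in a last exon of 368 bases (chr12:21635342-21635709). Its last exon stood at a coverage of 177, 124, 99.6 and 381 reads per base against 863, 545, 464 and 1282 on the internal exons. The log2 ratios of -2.29, -2.14, -2.22 and -1.75 lie close together, with HL60 highest. MDH1, the cytosolic malate dehydrogenase, has 126 coding bases in a last exon of 336 bases, and its log2 ratios of -0.50, -1.41, -0.23 and -1.62 fall into a higher pair, K562 and the library labelled MOLM13, and a lower pair. Its top transcript held 74.6, 30.3, 91.8 and 34.3% of the gene's TPM in the same order. The higher pair is thus also the pair in which that transcript took most of the TPM. With the coverage of all transcripts of MDH1 summed and 0.1 added, the log2 ratios were -0.46, -1.40, -0.23 and -1.54. The same pairs thus stayed apart in the sum, and the cause of the split was not tested.

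A last exon with no coding base occurred in 184 of the complete coding regions, those in which the stop codon lies in an earlier exon. Their median ratio was 0.0412, 0.0419, 0.0394 and 0.0556, and 43, 20, 39 and 31 of them were listed at 0 coverage. This class was split by the distance from the stop codon to the last junction, for which 55 bases is the usual limit in descriptions of nonsense-mediated decay. In 79 the stop codon ends 55 bases or fewer upstream, and their median ratio was 0, 0.00449, 0.00191 and 0.00117. In the other 105 the median was 0.162, 0.188, 0.183 and 0.184.

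The 2 kinds also differ in whether the exon is coding elsewhere. No transcript of the gene has a coding base there in 56 of the 79 exons and in 16 of the 105. The 56 had a median ratio of 0, 0.00270, 0 and 0.000700, and the 16 had 0, 0.0116, 0 and 0.00938. Where another transcript of the gene codes in the exon, the median was 0.0158, 0.0135, 0.00592 and 0.0266 for the 23 exons with a near stop codon and 0.196, 0.223, 0.261 and 0.216 for the 89 with a far one. Over all 72 last exons that no transcript codes in, 59.3, 27.3, 51.6 and 39.1% of those measured were listed at 0, with the lowest share in THP-1.

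**Figure D4:**
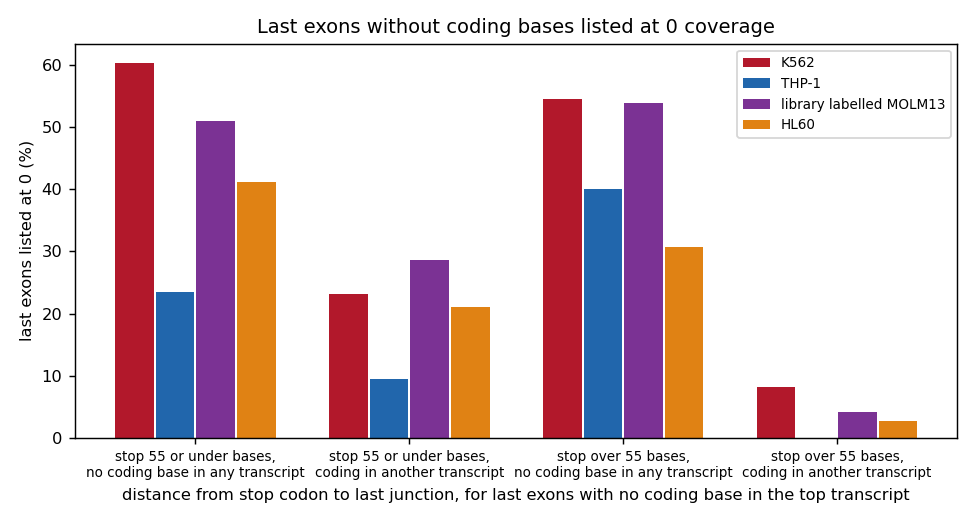
Percent of last exons listed at 0 coverage (y axis) among those with no coding base in the top transcript, by distance of the stop codon from the last junction and by whether another transcript of the gene codes in the exon (x axis), with 1 bar per library. Where no transcript codes in the exon and the stop codon is near, 60.4, 23.5, 51.0 and 41.2% were at 0, and where another transcript codes there and the stop codon is far, 8.20, 0, 4.17 and 2.67% were.

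Several named genes belong to the class with a near stop codon. GNAI3, a G protein alpha subunit, ends its coding region 22 bases before the last junction and has a last exon of 7851 bases (chr1:109592345-109600195, all 3′ UTR). Its last exon stood at 0, 0.177, 0 and 0.00840 reads per base against 96.0, 130, 69.0 and 160 on the internal exons, with the top transcript at 100% of the gene's TPM in each library. HNRNPD, an RNA-binding protein of AU-rich elements, stood at 0, 0.498, 0.216 and 0.427 on its last exon against 306, 238, 178 and 527, with its stop codon 30 bases before the junction. RALY, an hnRNP protein, has its stop codon 4 bases before the junction and stood at 0, 0.0406, 0 and 0.0671 against 45.8, 76.3, 36.1 and 89.9. In these 3 genes every last exon was at or under 0.498 reads per base.

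The files list 11 last exons at 0 in all 4 libraries although the internal exons were covered, and 10 of them were also at 0 when the coverage of all transcripts of the gene was summed. Of the 11, 8 have no coding base in the last exon. RPS15A, a protein of the small ribosomal subunit, is the exception to the sum. Its last exon of 1808 bases (chr16:18781295-18783102, 94 of them coding) was at 0 in all 4 libraries against 634, 621, 355 and 1013 on the internal exons. TMEM258, a subunit of the oligosaccharyltransferase complex, was at 0 against 167, 197, 212 and 630 in a transcript annotated for nonsense-mediated decay.

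At the other end, 32 of 2363 last exons in K562 were at least 2-fold above their internal exons, which is 1.35%. The other 3 libraries had 0.683, 1.29 and 0.798%, against 12, 8.82, 11.5 and 7.47% for 1 internal exon against the others. In all, 63 last exons were above in at least 1 library, 41 of them in 1 library only and 6 in all 4. Their median length was 235 bases, and the median coding share of the 42 with a complete coding region was 44.5%. With the coverage of all transcripts of the gene summed, 38 of the 63 were still above in at least 1 library.

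The 6 that were above in all 4 were AP002990.1, KRT10, RPL27A, RPL29, RPS15 and TUBG1, and all but RPL29 were so in the summed coverage too. RPS15, a protein of the small ribosomal subunit, has a last exon of 146 bases (chr19:1440349-1440494) of which 114 are coding. It stood at 122, 197, 100.3 and 172 reads per base on the last exon against 38.0, 45.5, 24.6 and 50.7 on the internal exons. Its log2 ratios of 1.68, 2.11, 2.03 and 1.76 were all above 0. TUBG1, gamma-tubulin of the centrosome, stood at 27.3, 21.2, 15.2 and 27.9 against 8.47, 7.37, 6.19 and 10.3, with log2 ratios of 1.69, 1.53, 1.30 and 1.44. Its top transcript is annotated as a retained intron, and 198 bases of its last exon are coding in other transcripts. KRT10, a keratin of the epidermis, stood at 75.1, 68.3, 42.1 and 61.4 against 26.0, 20.7, 10.1 and 23.4. Its top transcript has 7 coding bases in the last exon of 366 bases, and other transcripts raise this to 107. AP002990.1 is a readthrough transcript whose last exon overlaps EEF1G, so its reads cannot be told apart from those of that gene. Reads of ribosomal protein genes and tubulin genes can also be split among near-identical copies, so their values are uncertain.

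TOR3A, a torsin family ATPase of the endoplasmic reticulum, has 251 coding bases in a last exon of 1029 bases (chr1:179094968-179095996). The last exon stood at 33.1, 83.1, 33.0 and 150 reads per base against 20.8, 12.4, 6.97 and 15.5, with log2 ratios of 0.67, 2.75, 2.24 and 3.27. K562 was lowest and HL60 highest, and the last exon was above the internal exons in every library. The top transcript held 94.1, 99.9, 99.9 and 99.8% of the gene's TPM, and no other gene's exon overlaps this one. HSP90AB1, the constitutive cytosolic HSP90, has 110 coding bases in 395 (chr6:44253489-44253883) and stood at 1200, 915, 639 and 796 against 708, 595, 312 and 716. Its log2 ratios of 0.76, 0.62, 1.04 and 0.15 were above 0 in all 4 libraries.

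**Figure D5:**
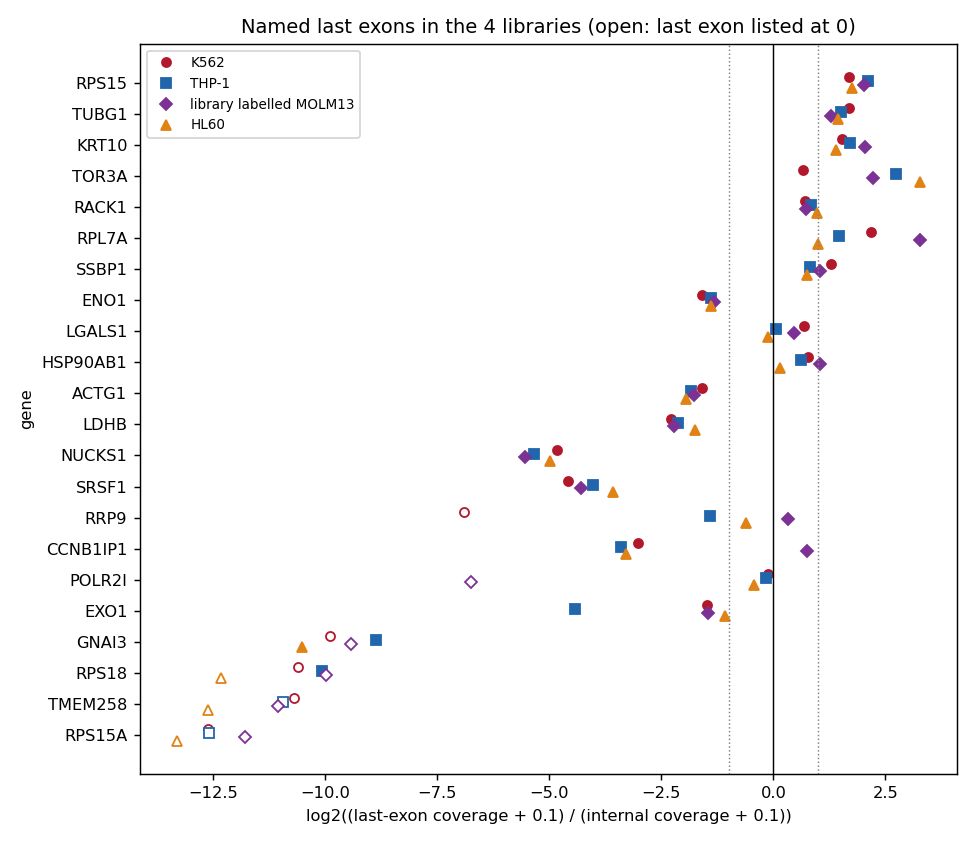
Log2 of last-exon over internal coverage, with 0.1 added to both (x axis), for 22 of the named genes (y axis), with 1 symbol per library and open symbols where the last exon was listed at 0. RPS15, TUBG1, KRT10 and TOR3A lie above 0 in all 4 libraries, and the 4 open symbols of RPS15A mark values set by the added constant.

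The last exons with the most aligned bases of their length class follow. LGALS1, which encodes galectin-1, is 73.5% coding over 200 bases (chr22:37679603-37679802) and had log2 ratios of 0.69, 0.05, 0.45 and -0.13. ENO1, the glycolytic enolase, had log2 ratios of -1.59, -1.40, -1.34 and -1.39 on a last exon of 230 bases, with coverage of 414, 674, 301 and 1517 reads per base. ACTG1, cytoplasmic gamma-actin, had -1.60, -1.84, -1.77 and -1.95 on 842 bases. ARHGDIB, a cytosolic protein abundant in blood cells, stood at 8.92, 245, 29.2 and 1558 reads per base on its last exon and had log2 ratios of -2.28, -2.39, -2.40 and -2.21. The level of ARHGDIB thus differed between libraries by far more than its ratio. LYZ, the lysozyme of myeloid cells, behaved alike, with 1.60, 310, 0.434 and 87.8 reads per base on the last exon and log2 ratios of -3.80, -3.90, -4.43 and -4.18.

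The members with the most aligned bases among last exons of 4000 bases and over were NUCKS1 and SRSF1. NUCKS1, a nuclear DNA-binding protein, has 200 coding bases in 5658 (chr1:205712822-205718479) and stood at 8.53, 12.8, 5.98 and 9.45 reads per base against 246, 530, 284 and 302. Its log2 ratios were -4.85, -5.37, -5.57 and -5.00. SRSF1, a splicing factor of the SR family, had -4.60, -4.03, -4.32 and -3.60 on 4682 bases. SOD2, the mitochondrial superoxide dismutase and the longest last exon, stood at 1.34, 0.318, 0.809 and 0.508 against 66.4, 40.9, 58.2 and 68.1. TUBB4B and TUBB, beta-tubulins whose last exons are 87.5 and 50.8% coding, had -0.37, -1.04, -0.54 and -1.03 for TUBB4B and -0.48, -1.62, -0.06 and -1.67 for TUBB.

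Of the gene lists, cytosolic ribosomal proteins had short last exons, with a median of 169 bases and 45.9% coding over the 49 of 79 listed genes that were members. Of the 31 measured in all 4 libraries, 22 were at least 2-fold below in each, against 80.7% of all members measured in all 4. Their median ratio was 0.229, 0.169, 0.203 and 0.188, above the 0.112 to 0.126 of all members. At least 2-fold above were 4 of 41, 4 of 45, 4 of 38 and 3 of 46 measured. Over all members the share was 1.35, 0.683, 1.29 and 0.798%, and over last exons under 250 bases 7.14, 2.14, 5.43 and 2.67%. Divided by the coding share, the median of the ribosomal proteins was 0.565, 0.795, 0.551 and 0.649, below the 0.870 to 0.922 of all members. The 31 subunits of the respiratory chain and ATP synthase had a median ratio of 0.291, 0.223, 0.256 and 0.259, and 15 of 22 were below in each library. The 29 proteasome subunits had 0.209, 0.205, 0.220 and 0.209, with 22 of the 25 measured everywhere at least 2-fold below in all 4 libraries. PSMB1, a beta subunit of the proteasome core, had log2 ratios of -1.17, -1.16, -1.19 and -1.23, among which no library stood out. The 20 aminoacyl-tRNA synthetases had 0.293, 0.273, 0.189 and 0.356, with 8 of 13 below in each. EPRS1, the glutamyl-prolyl synthetase, had log2 ratios of -1.02, -0.92, -1.22 and -0.96 on 357 bases, close together in all 4.

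Other lists differed in length and ratio. The 24 SR and hnRNP splicing factors, with a median last exon of 1495 bases and 8.21% coding, had a median ratio of 0.0238, 0.0549, 0.0313 and 0.0962, with 17 of 20 below in each library, again beside 80.7% of all members. The 28 translation factors, with a median last exon of 489 bases, had 0.0935, 0.112, 0.0739 and 0.118, with 17 of 17. In that list EEF2, the translocation factor, had log2 ratios of -2.88, -2.45, -2.83 and -2.54 on 692 bases. The 23 chaperones had 0.0914, 0.119, 0.104 and 0.110, with 15 of 18. The 9 glycolytic enzymes, with a median last exon of 368 bases, had 0.205, 0.223, 0.0775 and 0.231, with 5 of 5. The 8 genes with described readthrough or frameshifting had 0.0634, 0.131, 0.0465 and 0.297, over 6, 8, 6 and 8 measured exons. Over 6 exons the value is the lower of the middle pair and over 8 the upper, so it does not compare the libraries.

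Among the short lists, the 6 mRNA stability factors with long 3′ UTRs had median ratios of 0.138, 0.142, 0.0476 and 0.0641. The 4 iron-regulated messages had 0.275, 0.371, 0.192 and 0.354. In that list TFRC, the transferrin receptor with its iron-responsive elements in the 3′ UTR, had log2 ratios of -3.85, -3.57, -3.46 and -3.64 on 2901 bases. FTL, a ferritin chain with its element in the 5′ UTR, had -1.86, -0.74, -2.38 and -0.49. TFRC thus stayed within a narrow range, and FTL split into a lower pair, K562 and the library labelled MOLM13, and a higher pair.

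Selenoproteins insert selenocysteine at a TGA codon through an element in the 3′ UTR, and 4 were members. Their median ratio was 0.0163 in K562 and 0.0583 in THP-1, over 3 measured exons each. Only 2 exons were measured in the library labelled MOLM13, at 0.0337 and 0.0724. In HL60 2 were measured as well, and the lower ratio was 0.0270. TXNRD1, a thioredoxin reductase with 69 coding bases in a last exon of 1931, had log2 ratios of -4.08, -4.10 and -4.89 in the first 3 libraries, and in HL60 its top transcript was at 0.

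Of the members, 4 were long non-coding RNA genes, which have no annotated coding region. The list of small nucleolar RNA host genes had 4 members, of which 2, 3, 3 and 4 were measured. The 2 ratios of K562 were 0.00381 and 0.0186, and the middle pair of HL60 was 0.0233 and 0.0854. Over 3 exons each, the median was 0.0327 for THP-1 and 0.0975 for the library labelled MOLM13. SNHG1, a member of this list, stood at 1.63, 0.348, 0.225 and 3.26 reads per base on its last exon of 656 bases. Its internal exons stood at 428, 300.2, 187 and 1026, and its log2 ratios were -8.04, -9.75, -9.70 and -8.30. SNHG29 had -5.75, -4.93, -3.36 and -1.18, and its top transcript held 59.4, 46.7, 35.4 and 22.7% of the TPM. With all transcripts of SNHG29 summed and 0.1 added, the values were -5.91, -5.28, -4.71 and -3.05. The last exon of SNHG29 overlaps exons of LRRC75A and SNORD65. SNHG17 was measured in 2 libraries, with -5.42 in HL60 and -3.00 in the library labelled MOLM13. AC010642.2 had 0.03, -0.54 and -0.31 in the 3 libraries other than K562, but its last exon overlaps exons of other genes. Whether ribosomes or other proteins shielded these fragments was not tested. With the coverage of all transcripts summed, SNHG1 stood at -6.65, -7.64, -3.43 and -7.73, so the library labelled MOLM13, where its top transcript held 49.2% of the TPM, came near the median of all members.

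To compare the lines, members with at least 600 aligned bases on the internal exons in all 4 libraries were used (1916), and 0.1 was added to both coverages. The ratio of a member varied by a median SD of 0.547 log2 units over the 4 libraries, while member means had an SD of 1.80 over members. The range over the libraries was under 1 in 712 members (37.2%) and at least 2 in 419 (21.9%). Pearson's r across exons was highest between THP-1 and HL60, the deepest libraries, at 0.893, and lay between 0.785 and 0.817 for the other pairs. These exons are not independent replicates.

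High in a line means a log2 ratio that exceeded each of the other 3 by 2 or more, and low means one that lay under each of them by 2 or more. High calls numbered 7 (0.365%), 10 (0.522%), 9 (0.470%) and 7 (0.365%). Low calls numbered 48 (2.51%), 5 (0.261%), 32 (1.67%) and 14 (0.731%), so the 2 shallowest libraries had the most. In 25 of the 48 low calls of K562 and 11 of the 32 of the library labelled MOLM13, the last exon was listed at 0 in the called library itself. The part of depth in these counts was not tested.

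RRP9, a protein of the U3 small nucleolar ribonucleoprotein, was called low in K562, with its top transcript at 100% of the TPM in each library. Its last exon of 171 bases (chr3:51933429-51933599, 94 coding) was at 0 in K562 and at 8.41, 7.74 and 38.0 in the others, against internal coverage of 11.9, 22.5, 6.17 and 58.3. DPCD, the other K562 case, was at 0 in K562 and at 7.59, 3.93 and 8.53 elsewhere. POLR2I, a subunit of RNA polymerase II, was at 0 in the library labelled MOLM13 and at 11.3, 7.85 and 17.5 elsewhere, on a last exon of 95 bases. CPSF1 was at 0 in the same library and at 6.68, 7.99 and 5.73 elsewhere.

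EXO1, a DNA exonuclease, was low in THP-1, with 5.47, 0.326, 2.54 and 3.86 reads per base on the last exon and log2 ratios of -1.51, -4.79, -1.50 and -1.11. CCNB1IP1, a ubiquitin ligase of meiotic recombination, was high in the library labelled MOLM13, with 0.800, 0.701, 5.27 and 2.30 on the last exon, internal coverage of 7.25, 8.39, 3.07 and 23.3, and log2 ratios of -3.18, -3.58, 0.78 and -3.34. Its top transcript held 100% in each library. GPBP1 was at 0 in HL60 and at 1.16, 1.07 and 0.599 elsewhere.

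Several calls involved a top transcript with a small share of the gene's TPM in the called line. UBAP2L was high in the library labelled MOLM13, where its top transcript held 1.05% of the gene's TPM, and its log2 ratio there, with 0.1 added, went from 1.73 to -4.88 when the coverage of all transcripts was summed. On the same scale SRRM1 was high in THP-1 at -0.07, with 2.53% of the TPM, and stood at -5.23 in the sum. HSPB11 was high in K562 at 3.73, with 22.3%, and stood at -1.31 in the sum. CDV3 was high in HL60 at -1.32, with 20.4%, and stood at -4.72. PCBP2, the other high call named for K562, stood at -4.46, with 0.365% of the TPM, and at -9.64 in the sum. None of these 5 met the size rule in the sum. THOC6, the other for HL60, did: it stood at -1.15 with 25.2% of the TPM, and the summed values were -5.66, -6.36, -7.24 and -1.93.

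CSNK2A2 was called high in THP-1 although its last exon was at 0 in all 4 libraries, so the call came from the added constant and the internal coverage of 20.1, 0.75, 12.8 and 23.9 alone. KCNN4 (THP-1 low) was likewise at 0 in 3 libraries, THP-1 among them, with 0.168 in HL60. RPSA (HL60 low) was at 0 in the other 3 libraries and at 0.0926 in HL60. In these 3 genes the last exon of the top transcript was at or near 0 throughout, and its internal coverage differed. For RPSA the top transcript held 11.5, 1.72, 23.0 and 81.4% of the TPM, and the summed log2 ratios were -0.12, -6.22, -0.49 and -5.28.

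The top transcript was one of several in most genes. It held at least 80% of the gene's TPM in all 4 libraries in 675 of the 2836 members (23.8%). In that group, 89.8, 91.7, 91.0 and 92.9% of last exons were at least 2-fold below the internal exons. Transcript types in GENCODE release 29 were protein coding for 2448 members, with a median ratio of 0.103, 0.117, 0.106 and 0.115. For 141 annotated as retained introns it was 0.246, 0.239, 0.218 and 0.266, for 109 annotated for nonsense-mediated decay 0.196, 0.190, 0.216 and 0.216, and for 43 processed transcripts 0.231, 0.240, 0.260 and 0.370. Their last exons were shorter, with medians of 381, 371 and 188 bases against 886. Exons of another gene overlapped 532 of the last exons, and reads of overlapping genes cannot be told apart because no strand option was used.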

How the data were processed

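Ribosome-protected fragments of 4 cell lines were analysed, 1 library each. Per the submitters' processing notes, the build was hg38 and the tools were StringTie 2.1.5, STAR 2.7.8a, Bowtie2 2.4.2 and Trim Galore 0.6.6. StringTie took transcripts from GENCODE release 37 only, with no strand option, per the file headers. The deposited files hold the authors' TPM and FPKM per transcript and mean coverage per exon, and no read counts were used here. StringTie divides shared reads among transcripts, so an exon's value depends on that division.

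The ratio is last-exon coverage over the length-weighted mean of internal exons (neither first nor last). A median ratio over an even number of exons is a middle value, not the mean of the middle pair. Whether it is the lower or the upper of the pair depends on the number of exons. Coding regions, including the stop codon, came from GENCODE release 29 for transcripts with the same introns (2695 members), and 977 of these also had identical ends. A fragment had a modal length of 29 bases, so 600 aligned bases are 20.7 footprints, with a Poisson interval of 61.7 to 153% of the value. PCR copies are counted, so intervals cover counting error only. The ratio was tested on simulated data. The members, the 13 gene lists and the rule for named genes were chosen with earlier results of these data known. Named genes are the 8 highest and 8 lowest ratios, 2 high and 2 low per line, the 2 with most aligned bases per length class, up to 3 per list, lncRNA genes, and the longest and shortest last exon; not all are described. A sequence or gene not named here was not analysed. Software was Matplotlib 3.10.9, SciPy 1.17.1, pandas 2.3.3, NumPy 2.4.6 and Python 3.11.15. The alternatives tried are given in the closing section.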

Additional observations from a re-analysis of the deposited data

How the results depend on the processing

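Under every alternative run, most last exons stayed below the internal exons. Of 124 values under other settings, 66 stayed within the interval or spread of the first value, or within 1.5 times a count, and 58 moved beyond it. Values are in the order K562, THP-1, library labelled MOLM13, HL60. The share at least 2-fold below was 81.0, 82.6, 80.2 and 83.3% against the exon before the last alone, 84.2, 86.5, 85.2 and 86.3% at a gene TPM of at least 50, 89.8, 91.7, 91.0 and 92.9% where the top transcript holds 80% of the TPM, and 88.9, 90.4, 89.0 and 90.5% over complete coding regions. A fold of 1.5 gave 92.0, 92.8, 91.1 and 92.9%, and a fold of 3 gave 79.4, 79.4, 79.6 and 78.9%. With at least 6 exons K562 stood at 88.8%, and with the median of internal exons THP-1 stood at 87.1% and the library labelled MOLM13 at 85.6%. The share at least 2-fold above was 4.13, 1.97, 3.60 and 1.80% against the exon before the last, 2.20, 1.44, 2.01 and 1.33% at a fold of 1.5, and 0.592, 0.266, 0.524 and 0.342% at a fold of 3. In the library labelled MOLM13 it was 1.98% at a TPM of 50, 1.86% with the median of internal exons and 0.741% with the 80% limit, under which K562 stood at 0.444%.

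The counts of last exons high and low in a line, 33 and 99 in all, depended on the setting. They were 50 and 168 with 0.01 added to the coverage, 25 and 16 with 1 added, where high calls outnumber low ones, 205 and 304 at a log2 difference of 1, and 18 and 56 without last exons at 0 in any library. They were 64 and 130 without the library labelled MOLM13, 8 and 27 (of 675) with the 80% limit, and 64 and 196 (of 2825) with coverage summed over transcripts of the gene. The log2 difference between the shortest and the longest last exons, 3.97 as a mean of the libraries, was 3.81 with summed coverage and 3.75 with the 80% limit. That between the highest and the lowest coding class, 3.89, was 3.67 with summed coverage. For the moved values the cause was not tested. Summed coverage, complete coding regions, and the settings of the 2 log2 differences were chosen after the data were seen, as was the 80% limit for the counts by line. No paired analysis was possible because each line has 1 library, and for the same reason no replicate could be left out. Depth limits part of the last exons, since 1367 of the 1916 compared between lines also hold 600 aligned bases on the last exon in all 4 libraries.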
